A study of Mus musculus with 13 samples.

Results

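The genes described here are the mouse translation initiation factors, taken as every gene-detecting probe on the array whose gene name starts with Eif followed by a digit from 1 to 6. Names of the eIF2 kinases (Eif2ak), of the eIF4E-binding inhibitors (Eif4ebp) and of pseudogenes were left out, and Eif2s1 is not analysed here. The rule found 50 genes and 81 probes among the 34797 gene names on the array. Of these genes, 42 were listed with a role in initiation and 4 are Argonautes printed under an older Eif2c name (Eif2c1 to Eif2c4 are now Ago1 to Ago4). Another 4 act mainly elsewhere (Eif4a3, Eif4enif1, Eif5a and Eif5a2). The rule uses names and no measured values.

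RNA came from the gastrocnemius, a mixed hindlimb skeletal muscle, of 7 male C57BL/6J mice carrying a UCP1 transgene and of 6 wild type male littermates on the same background. UCP1 lets protons leak across the inner membrane of brown fat mitochondria, and the series title places its overexpression in skeletal muscle. The promoter that drives the transgene is not given in the labels. All mice were adult, their age is given as 12 weeks, and all received a purified low fat diet for 12 weeks. Each mouse was hybridised to 1 array in the red dye (Cy5) against a shared pool of the study's RNA in the green dye (Cy3), with no dye swap. Every level below is the log2 ratio of a mouse over that pool, so 0 equals the pool, and every difference is the mean log2 ratio of UCP1 transgenic mice minus that of wild type mice.

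Translation initiation loads the small ribosomal subunit with initiator tRNA through eIF2, a GTP-binding factor that the exchange factor eIF2B recharges. The large complex eIF3 joins it to the small subunit, the eIF4 factors bind the mRNA cap and unwind the leader, and eIF1, eIF1A and eIF5 take part in choosing the start codon. Phosphorylation of eIF2 lowers general initiation and raises the translation of ATF4, a transcription factor of amino acid and stress genes.

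The transgene was checked first. Ucp1 read -0.20 to 0.85 on the 7 UCP1 transgenic arrays and -4.23 to -2.82 on 5 wild type arrays, while the array labelled wild type replicate 4 read 0.45, within the transgenic range. On that array Fgf21, Trib3 and Asns, which separated the genotypes, stood in the wild type range at -3.60, -3.77 and -3.40. The mean of 5 brown adipocyte markers other than Ucp1 was also highest there, at 0.42, where the lowest wild type array had a mean of -0.47. Cidea weighed most in it, at 1.80 against -2.19 to -0.84 on the other wild type arrays. Dio2 (0.20) and Zic1 (0.17) were also highest there among wild type arrays, but Cox7a1 (0.32) and Ppargc1a (-0.39) were not. Wild type replicate 4 was kept under its label, and results that change without it are given with and without it. Of the skeletal muscle markers, 6 of 9 were lower and 1 was higher in UCP1 transgenic mice (median difference -0.54), and all 9 passed the filter on dim probes. Over all genes, 16.1% were lower and 16.9% higher. Those lower were Tnnt3, Pvalb, Acta1, Myh4, Mb and Actn3, the one higher was Myh1 (0.62), and Ckm (-0.03) and Ttn (0.08) did not pass. White adipocyte markers were higher for 6 of 7 measured genes, with means per array of -0.23 to 0.42 in UCP1 transgenic mice and -0.67 to -0.03 in wild type mice, and Lep was not above background on any array. The value of -0.03 was that of wild type replicate 4, and the means of the other wild type arrays all lay below the transgenic range. Red blood cell markers were higher for 5 of 5 genes, with means per array of -0.26 to 0.84 in UCP1 transgenic mice and -0.75 to -0.06 in wild type mice. Nerve and Schwann cell markers were higher for 3 of 5 measured genes. Wild type replicate 4 had the highest wild type mean for both lists (-0.06 and 0.15), and the lowest for skeletal muscle markers (0.16). The part of these cell types in the results below was not tested, and in whole muscle fewer cells of a type and less RNA per cell cannot be told apart.

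Of the 50 genes, 47 were measured (69 probes whose Cy5 signal was well above background on 6 or more of the 13 arrays). Eif2c3, Eif4e1b and Eif5b were not, each with probes well above background on 0 to 2 transgenic arrays and on no wild type array. With limma and Benjamini-Hochberg adjustment over all 17257 genes tested (threshold 0.05), 12 of the 47 were higher and 3 lower in UCP1 transgenic muscle, and 32 did not pass. With the array slide as a block, fixed or random, 15 were higher and 5 lower, since Eif3i, Eif4h and Eif1ax then also passed as higher and Eif4g3 and Eif5a2 as lower. Of all genes, 35.8% passed with the fixed block and 36.1% with the random block. Passing in the fit without the block was about as common among the 47 members, 31.9%, as among all genes, of which 33.0% passed. Of the 40 measured members listed with a role in initiation, 30% passed. The direction was less even, since 25.5% of the members were higher, against a background of 16.9%, and 6.38% were lower, against 16.1%. Their median difference was 0.09, against -0.00 over all genes. Most differences were small, and 44 of the 47 were under 0.5 in size. The genotypes did not overlap on any array for 7 members, 5 with all transgenic arrays above (1 of them Eif2c1, mostly near background in wild type muscle) and 2 with all below, where 14.7% of all genes separated so (7.47% above and 7.26% below).

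**Figure D1:**
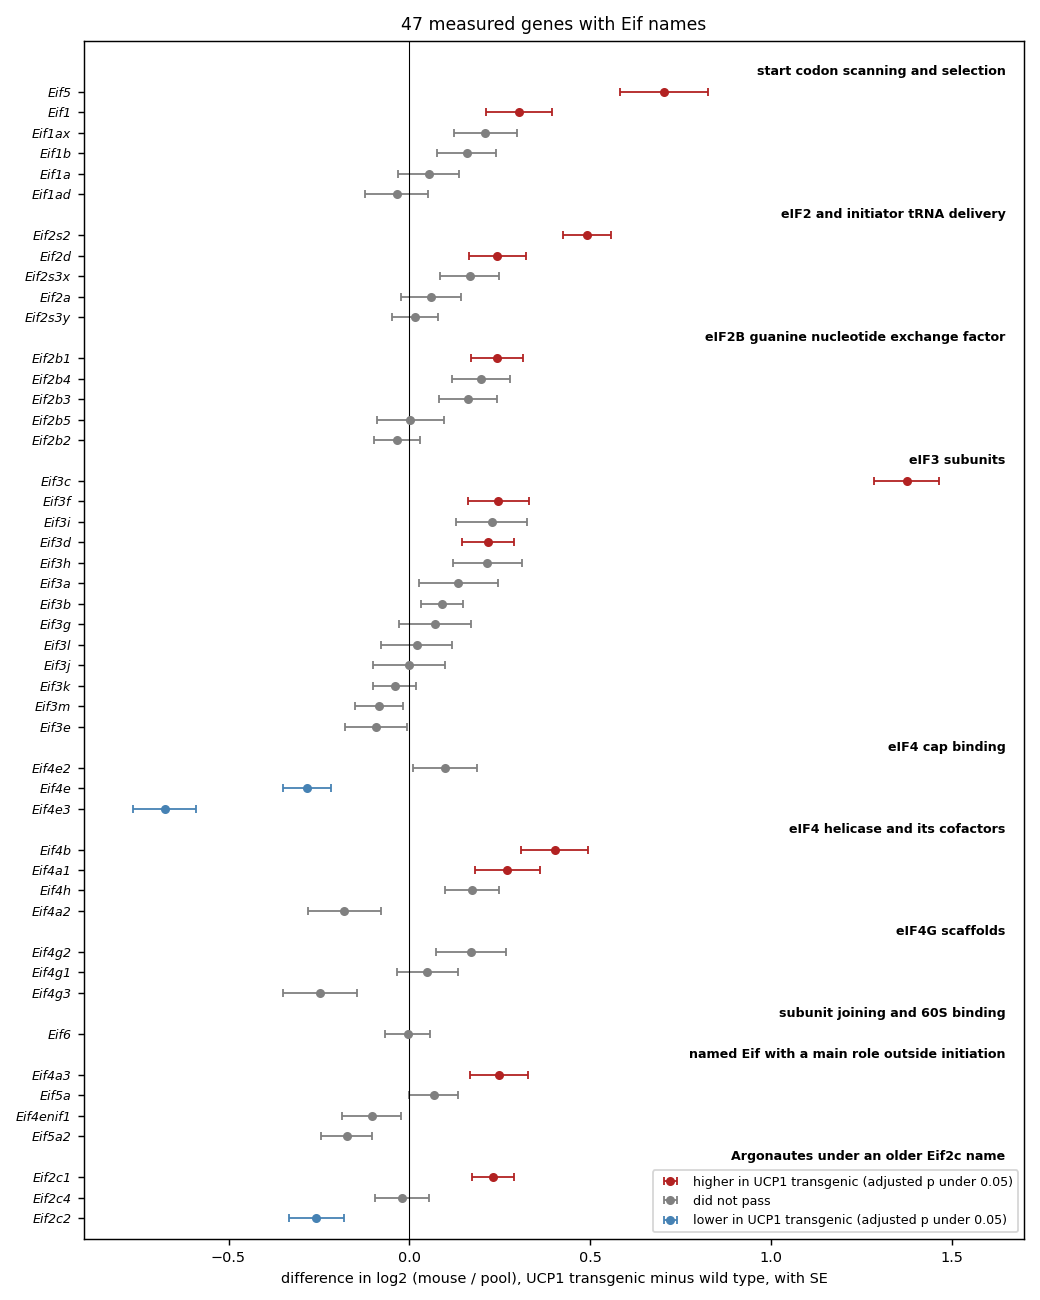
Difference in log2 ratio (UCP1 transgenic minus wild type, horizontal axis, bars are standard errors from limma, n = 7 and 6 arrays) for the 47 measured genes with Eif names, grouped by role. Red marks the 12 genes that passed as higher, blue the 3 that passed as lower and grey the other genes. Eif3c stands alone at 1.37, and the cap-binding genes Eif4e and Eif4e3 lie furthest to the left of their group.

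Eif3c and Eif5 carried the largest rises and were each measured by 2 probes. The sequence of the second probe of each, the one that does not stand for the gene in the fit over genes, is printed to show which stretch of the transcript gave the repeat reading. Sequences and positions are those of the deposited scanner files (mm9, 60 bases, minus strand at chr7:133707950-133708009 for Eif3c and plus strand at chr12:112778375-112778434 for Eif5), in lower case because no single base carries the result.
Eif3c: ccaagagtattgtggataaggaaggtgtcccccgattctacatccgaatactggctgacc
Eif5: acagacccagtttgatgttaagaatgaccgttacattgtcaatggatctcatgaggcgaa

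Eif3c, which encodes a core subunit of eIF3, rose most of all members. The probe that stands for the gene, the one with the highest mean signal (mm9 chr7:133690426-133690485, minus strand), read 0.30 at the lowest, 0.60 at the median and 0.83 at the highest in UCP1 transgenic muscle, against -0.995, -0.78 and -0.48 in wild type muscle. Every transgenic array lay above every wild type array. The difference was 1.37 ± 0.09 (SE), a 2.59-fold higher level (adjusted p = 6.21e-10, limma), and placed Eif3c at rank 73 of the 17257 genes by size of rise. The probe printed above gave 0.17 to 0.67 in UCP1 transgenic mice and -1.50 to -0.92 in wild type mice, a difference of 1.62. Within the 4 array slides, each of which held both genotypes, the difference of the first probe was 1.33 to 1.56.

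The other 12 eIF3 subunit genes did not share this size. Of all 13 subunits 3 were higher and none lower (23.1% passed, against 33.0% of all genes). By unadjusted p under 0.05 the numbers were 5 and 0. The share of all genes by that measure was not counted, and is at least the 33.0% that passed after adjustment. Eif3f, which encodes a subunit with an MPN domain, read -0.23, 0.06 and 0.27 (lowest, median, highest) in UCP1 transgenic muscle, against -0.35, -0.20 and 0.02 in wild type muscle. It passed as higher at 0.25 ± 0.08 (adjusted p = 0.0285, limma), with overlapping groups, and did not pass when any of 6 single arrays was left out, wild type replicate 4 among them (adjusted p = 0.0504, limma). Eif3d, whose product can itself bind the cap of some mRNAs, read -0.11, 0.07 and 0.21 in UCP1 transgenic muscle, against -0.36, -0.11 and 0.00 in wild type muscle, also with overlap. It passed at 0.22 ± 0.07 (adjusted p = 0.0240, limma) and was lost in 3 of the 13 fits that left out 1 array. Of the subunits that did not pass, Eif3i differed by 0.23 (adjusted p = 0.0813, and 0.0222 or 0.0400 with slide as a fixed or random block, limma), Eif3h by 0.22, Eif3a, the largest subunit, by 0.13, Eif3b by 0.09, Eif3g by 0.07 and Eif3l by 0.02. Eif3k, Eif3m and Eif3e differed by -0.04, -0.08 and -0.09. Eif3j, a loosely bound subunit now named Eif3j1, differed by -0.00 on the probe that stands for it. Its other 2 probes passed as lower in the fit over probes, at -0.26 and -0.35, so whether Eif3j passed depended on the probe. Read within each array, Eif3c stood 0.42 to 0.78 above the median of the other eIF3 subunits in UCP1 transgenic mice, whereas in wild type mice this distance was -0.87 to -0.47.

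**Figure D2:**
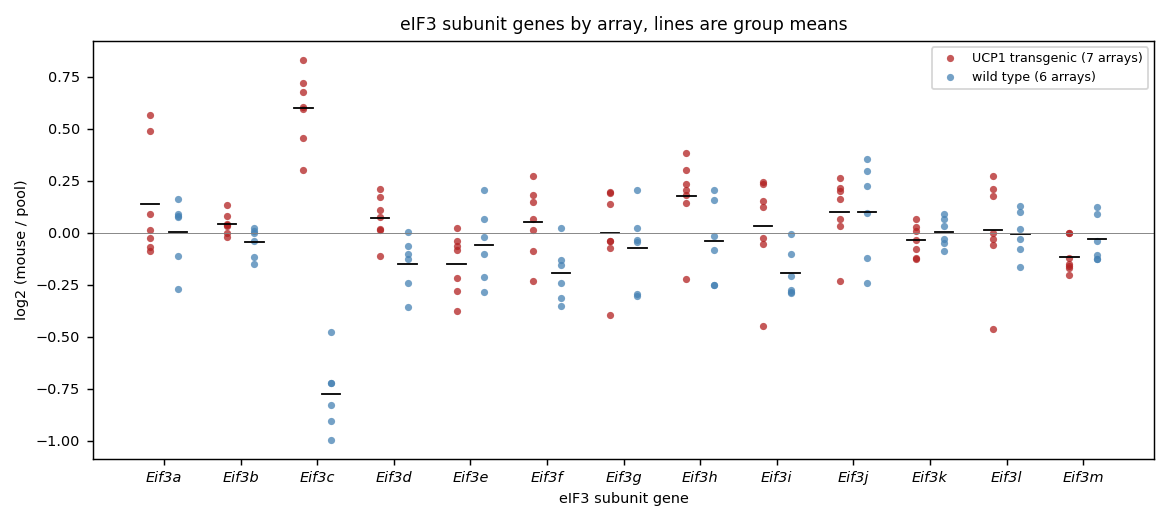
Log2 ratio of mouse over pool (vertical axis) of the 13 eIF3 subunit genes on each array, UCP1 transgenic (red, 7 arrays) left of wild type (blue, 6 arrays), lines at group means. Only for Eif3c are all transgenic arrays above all wild type arrays, at 0.30 to 0.83 and -0.995 to -0.48.

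Of the 6 measured genes listed under start codon choice, 2 were higher and none lower (median difference 0.18). That is 33.3% passed, against 33.0% of all genes. By unadjusted p under 0.05 the numbers were 3 and 0, a measure that at least 33.0% of all genes met (the exact share was not counted). Eif5, which encodes the GTPase-activating protein of eIF2, read 0.02, 0.27 and 0.52 in UCP1 transgenic muscle, against -0.86, -0.38 and -0.04 in wild type muscle. The groups did not overlap, although the highest wild type array lay close to the lowest transgenic one. The difference was 0.70 ± 0.12 (adjusted p = 0.000165, limma), or 1.63-fold, and both probes gave it, at 0.70 and 0.69. It varied between slides, from 0.30 to 1.08, and was positive in all 4. Eif1, which guards the accuracy of start codon choice, read -0.10, 0.14 and 0.51 in UCP1 transgenic muscle, against -0.35, -0.15 and 0.03 in wild type muscle. These ranges overlapped, and the difference of 0.30 ± 0.09 passed (adjusted p = 0.0143, limma), while a second probe gave 0.11 and did not. On 1 of the 4 slides Eif1 differed by -0.04. Eif1ax (0.21), Eif1b (0.16), Eif1a (0.05) and Eif1ad (-0.04) did not pass. Without wild type replicate 4, Eif1ax did, at 0.26 (adjusted p = 0.0257, limma).

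Of the 5 genes listed with eIF2 and the delivery of initiator tRNA, 2 were higher and none lower (40% passed, against 33.0% of all genes). Eif2s2, which encodes the beta subunit of eIF2, read 0.20, 0.32 and 0.39 in UCP1 transgenic muscle, against -0.34, -0.17 and 0.01 in wild type muscle. Every transgenic array was above every wild type array, and the difference was 0.49 ± 0.07 (adjusted p = 1.09e-05, limma), 1.41-fold. A second Eif2s2 probe gave 0.06 and did not pass. Eif2d, a factor that can place tRNA on the small subunit without eIF2, read -0.18, -0.00 and 0.31 in UCP1 transgenic muscle, against -0.37, -0.26 and -0.01 in wild type muscle. It passed at 0.24 ± 0.08 (adjusted p = 0.0227, limma) with overlap, and not without wild type replicate 4 (adjusted p = 0.0534, limma). Its other probe, spotted 10 times on the array, gave 0.30 with no overlap, at -0.11 to 0.10 in UCP1 transgenic mice and -0.36 to -0.27 in wild type mice. The gamma subunit genes on the X and Y chromosomes, Eif2s3x and Eif2s3y, differed by 0.17 and 0.02 and did not pass, nor did Eif2a, which encodes another tRNA-binding factor, at 0.06.

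The exchange factor eIF2B has 5 subunit genes, and 1 of them was higher (20% passed, against 33.0% of all genes). Eif2b1, which encodes the regulatory alpha subunit, read -0.36, -0.10 and 0.05 in UCP1 transgenic muscle, against -0.53, -0.39 and -0.23 in wild type muscle. The groups overlapped, and the difference was 0.24 ± 0.07 (adjusted p = 0.0142, limma), positive on all 4 slides at 0.23 to 0.30. Eif2b4, Eif2b3, Eif2b5 and Eif2b2 differed by 0.20, 0.16, 0.00 and -0.04 and did not pass.

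The cap-binding proteins were the one role list in which genes passed as lower and none as higher. Of its 3 measured genes 2 were lower, where 16.1% of all genes passed as lower. Eif4e, which encodes the main cap-binding protein, read -0.17, 0.02 and 0.15 in UCP1 transgenic muscle, against 0.19, 0.29 and 0.39 in wild type muscle. All transgenic arrays were below all wild type arrays, and the difference was -0.28 ± 0.07 (adjusted p = 0.00221, limma). Its other measured probe passed as well, at -0.25, with 1 wild type array (replicate 6) at -0.14 inside the transgenic range. Eif4e3, a divergent family member that also binds the cap, read -0.60, -0.43 and -0.15 in UCP1 transgenic muscle, against 0.14, 0.19 and 0.64 in wild type muscle, again with no overlap. It fell by 0.68 on the log2 scale (SE 0.09, 1.60-fold lower, adjusted p = 6.71e-06, limma) and ranked 392 of 17257 genes by size of fall, with -1.04 under Agilent's own log ratio. Eif4e2, which encodes the repressive cap-binding protein 4EHP, differed by 0.10 and did not pass.

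Of the 4 genes of the eIF4A helicase and its cofactors, 2 were higher (50% passed, against 33.0% of all genes). Eif4b, which encodes an RNA-binding stimulator of the helicase, read -0.14, 0.05 and 0.19 in UCP1 transgenic muscle, against -0.76, -0.28 and -0.15 in wild type muscle. The groups were adjacent but did not overlap, and the difference was 0.40 ± 0.09 (adjusted p = 0.00222, limma), while its other 2 probes gave 0.02 and 0.07 and did not pass. Eif4a1, the helicase gene, read -0.17, 0.15 and 0.46 in UCP1 transgenic muscle, against -0.22, -0.07 and -0.01 in wild type muscle. It overlapped and passed at 0.27 ± 0.09 (adjusted p = 0.0249, limma), but did not pass in 4 of the 13 fits that left out 1 array, wild type replicate 4 included (adjusted p = 0.0535, limma), and on 1 slide it differed by -0.07. Eif4h, a relative of Eif4b in function, differed by 0.17, and Eif4a2, the helicase paralog, by -0.18, and neither passed. None of the 3 eIF4G scaffold genes passed with limma, with Eif4g2 at 0.17, Eif4g1 at 0.05 and Eif4g3 at -0.25, and only Eif4g3 had an unadjusted p under 0.05. By that measure at least 33.0% of all genes passed. Eif4g3 passed as lower in 7 of the 25 alternatives, among them slide as a fixed block (adjusted p = 0.0471, limma) and Agilent's own log ratio (-0.36, adjusted p = 0.00281, limma). Eif6, which keeps free large subunits apart from small ones, differed by -0.01.

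Of the genes with a main role outside initiation, Eif4a3, a helicase of the exon junction complex, read -0.10, 0.02 and 0.18 in UCP1 transgenic muscle, against -0.45, -0.20 and 0.12 in wild type muscle. It passed at 0.25 ± 0.08 (adjusted p = 0.0209, limma), with overlap, and differed by -0.02 on 1 slide. Eif5a (0.07), whose product acts in elongation, Eif4enif1 (-0.10), which encodes an eIF4E transporter, and Eif5a2 (-0.17) did not pass. Of the Argonautes, the effectors of small RNA silencing, Eif2c1 read 0.02, 0.14 and 0.19 in UCP1 transgenic muscle, against -0.17, -0.12 and -0.02 in wild type muscle. Its probe was well above background on all 7 transgenic arrays and on only 2 of the 6 wild type arrays, so it entered the test through the transgenic arrays, and the wild type level is mostly a reading near background. The fitted difference of 0.23 ± 0.06 (adjusted p = 0.00354, limma) is therefore given with reserve. It was 0.69 with Agilent's own log ratio, 0.36 with a smaller background offset and 0.15 with the authors' deposited value table, where it did not pass (adjusted p = 0.182, limma). A filter that asks for every array leaves Eif2c1 out and counts 11 members higher. Eif2c2 read -0.56, -0.30 and -0.17 in UCP1 transgenic muscle, against -0.26, 0.01 and 0.08 in wild type muscle. It passed as lower at -0.26 ± 0.08 (adjusted p = 0.0127, limma) with overlap, whereas its other probe differed by -0.00. Eif2c4 differed by -0.02.

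**Figure D3:**
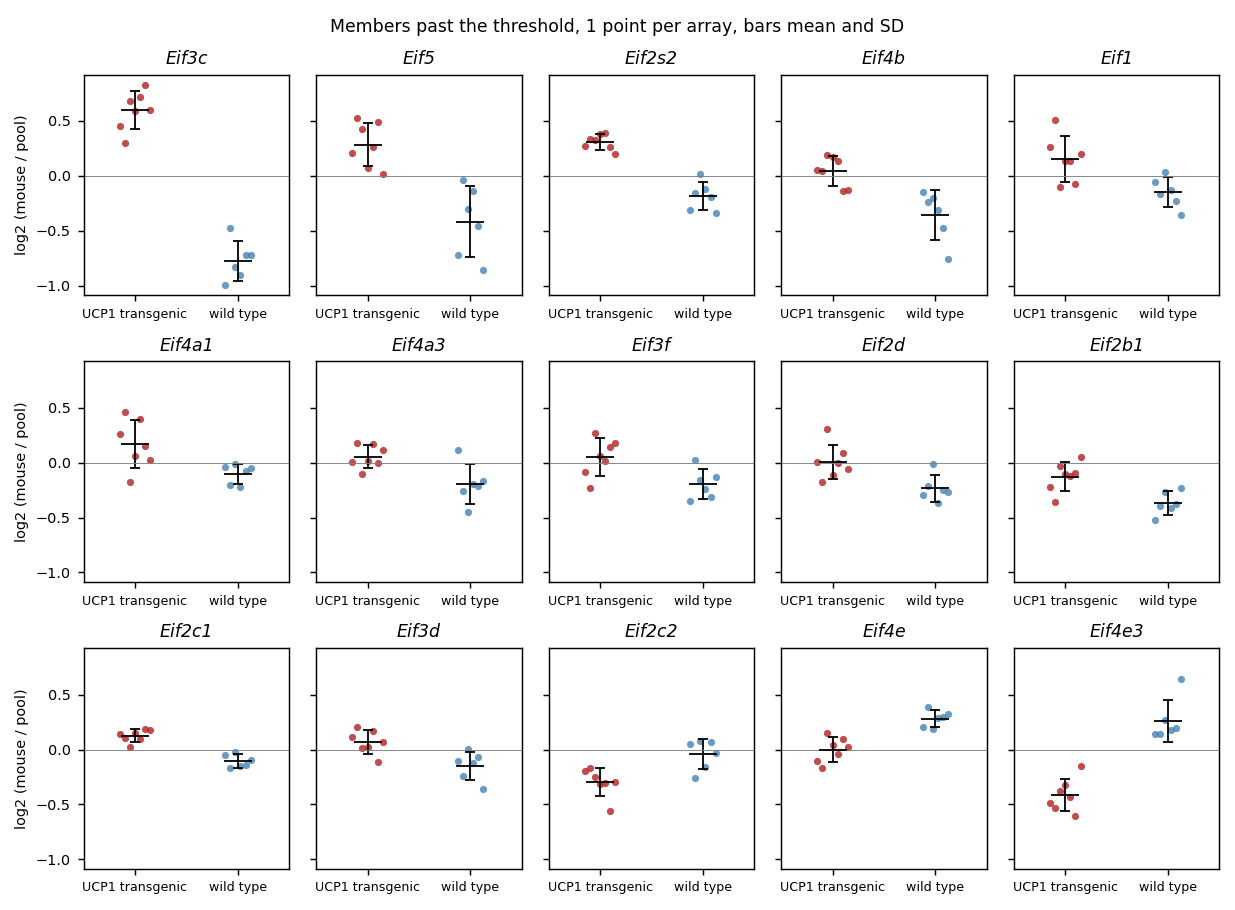
Log2 ratio of mouse over pool (vertical axis, shared by all panels) on each array for the 15 genes past the threshold, UCP1 transgenic left of wild type, with the mean and SD of each group (n = 7 and 6). Eif3c, Eif5, Eif2s2, Eif4b and Eif2c1 have all transgenic points above all wild type points, and Eif4e and Eif4e3 have them all below.

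Over probes instead of genes, 21 of the 69 measured member probes passed, in either direction, where 31.8% of all 22716 probes did. No gene had probes that passed in opposite directions.

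Related factors were also set against each other within each array, so that the test concerns the difference between their responses. Of 12 pairs compared by a two-sided exact permutation test over all 1716 relabellings, 6 passed after Benjamini-Hochberg adjustment over the 12. The pairs were chosen with earlier results of these data known, and the adjustment does not cover that choice. Eif4e2 minus Eif4e3 was 0.02 to 0.67 in UCP1 transgenic mice and -0.85 to -0.05 in wild type mice, with no overlap, and shifted by 0.77 (adjusted p = 0.00699, exact). The log ratios of both cap-binding genes that fell did so by unequal amounts, as Eif4e minus Eif4e3 was 0.17 to 0.70 in UCP1 transgenic mice and -0.32 to 0.25 in wild type mice, a shift of 0.39 (adjusted p = 0.00699, exact). Each gene was read by its own probe, and with a smaller background offset Eif4e3 differed by -0.84 and Eif4e by -0.30. Whether the probes scale alike was not tested. Eif5a minus Eif5a2 was -0.20 to 0.03 in UCP1 transgenic mice and -0.48 to -0.24 in wild type mice, a shift of 0.24 with no overlap (adjusted p = 0.00699, exact), although neither gene passed alone.

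Eif4g1 minus Eif4g3 was -0.27 to 0.18 in UCP1 transgenic mice and -0.67 to -0.17 in wild type mice, a shift of 0.30 (adjusted p = 0.0192, exact). The helicase pair, Eif4a1 minus Eif4a2, was -0.23 to 0.67 in UCP1 transgenic mice and -0.77 to 0.08 in wild type mice, a shift of 0.45 (adjusted p = 0.0408, exact). Eif4e minus Eif4e2 shifted by -0.38 with the same adjusted p of 0.0408 (exact), at -0.31 to 0.41 in UCP1 transgenic mice and 0.11 to 0.53 in wild type mice. These last 2 results were fragile, since the helicase pair no longer passed in 9 of the 13 tests that left out 1 array (adjusted p up to 0.0934, exact) and the Eif4e and Eif4e2 pair in 7 (up to 0.0779, exact). The pairs that did not pass shifted by 0.42 (Eif4g2 and Eif4g3, adjusted p = 0.0529, exact), 0.23 (Eif4b and Eif4h), 0.15 (Eif2s3x and Eif2s3y), 0.14 (Eif1 and Eif1b), -0.12 (Eif4g1 and Eif4g2) and -0.16 (Eif1a and Eif1ax), with adjusted p between 0.128 and 0.424 for the last 5 (exact).

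**Figure D4:**
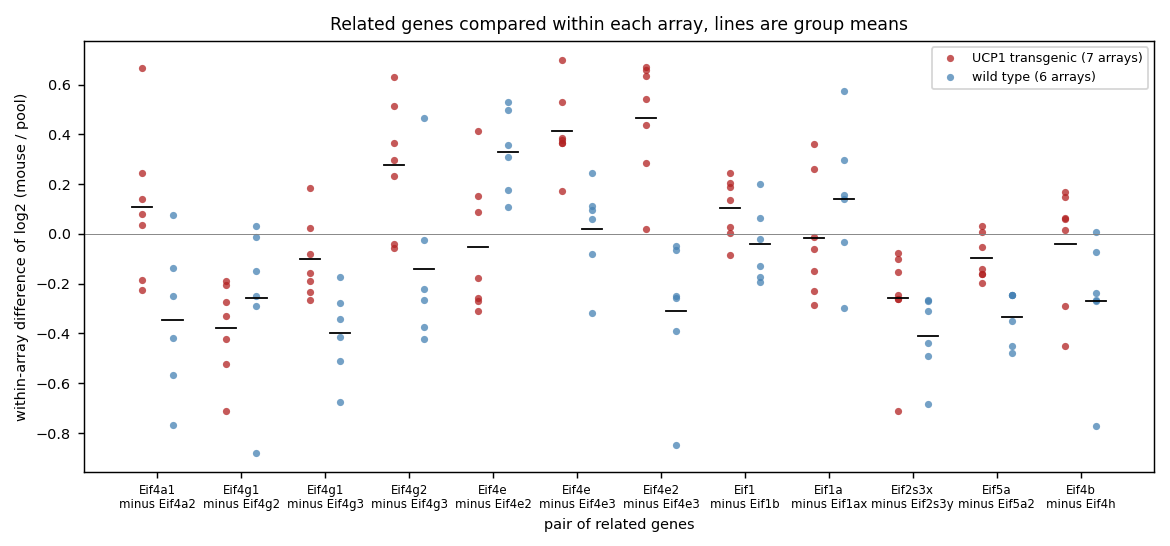
Within-array difference of the log2 ratios of 2 related genes (vertical axis) for 12 pairs, UCP1 transgenic (red, 7 arrays) left of wild type (blue, 6 arrays), lines at group means. The points of the 2 genotypes are apart for Eif4e2 minus Eif4e3 and for Eif5a minus Eif5a2, and overlap for the other pairs.

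Other genes of the pathway gave context for these sizes. Of 17 measured kinases, phosphatase subunits and inhibitors that act on initiation, 4 were higher and 3 lower (median difference 0.04). Over all genes 16.9% were higher and 16.1% lower, which is the background for each of these lists. The largest was Eif4ebp1, which encodes an inhibitor that sequesters eIF4E. It read 0.26, 0.48 and 0.80 in UCP1 transgenic muscle, against -1.77, -1.44 and -1.30 in wild type muscle, a difference of 1.98 ± 0.09 (adjusted p = 2.71e-12, limma) with no overlap. Ppp1r15a (GADD34), which directs a phosphatase to eIF2, was higher by 0.42, and Impact, an inhibitor of the eIF2 kinase GCN2, was lower by a difference of -0.39. The 4 eIF2 kinase genes Eif2ak1 to Eif2ak4 did not pass, at -0.21 to 0.05. Of 14 other proteins of initiation and ribosome recycling, 2 were higher and 3 lower (median -0.10), with the helicase gene Ddx3x at -0.37, the recycling factor gene Abce1 at 0.33 and the poly(A)-binding protein gene Pabpc1 at 0.23.

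Cytosolic elongation and termination held 13 measured genes, 3 higher and 1 lower (median 0.07), a list that includes Eif5a and Eif5a2. Of all genes, 33.0% passed in either direction. Eef1a1, the elongation factor that brings aminoacyl-tRNA to the ribosome, read 0.31, 0.47 and 0.60 in UCP1 transgenic muscle, against -1.29, -1.08 and -0.90 in wild type muscle, a difference of 1.52 ± 0.07 (adjusted p = 4.24e-12, limma). Like Eif3c, it separated the genotypes on every array. Eef1b2 (0.43) was higher and Eef1g (-0.47) lower, both without overlap, although their products belong to 1 exchange complex. None of the 9 mitochondrial translation factor genes passed with limma (median -0.05). An unadjusted p under 0.05 was seen for 1 of them, a measure for which the share of all genes was not counted and is at least 33.0%.

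Promoters were read from RefSeq (GRCm38.p6, 250 bases before to 50 after the annotated start), which held at least 1 window for 40 of the 50 members. The C/EBP-ATF response element core TGATGNAA, the kind of site that ATF4 can bind, was found on either strand in 1 of the 40 members (2.50%, Eif2s3x), against 4.51% of 27025 genes. The E-box CACGTG, which reads the same on both strands, was found in 10 of the 40 (25%), against 8.09% of genes. The 27025 genes were all those with a promoter window, measured here or not, so these shares are not of like sets. The 10 were Eif1b, Eif3a, Eif3f, Eif3k, Eif4a1, Eif4e, Eif4g1, Eif4h, Eif5a and Eif5a2, of which 2 were higher, 1 was lower and 7 did not pass. Of all genes tested, 33.0% passed. The windows of Eif3c, Eif5, Eif2s2 and Eif4b hold neither motif. The 3 windows printed are those of the members past the threshold that hold the E-box, shown in capitals, and they include a gene that fell (1 of the 2 windows of Eif4e, chr3:138527018-138527317, plus strand, first bases at -228 and -64 relative to the start) beside ones that rose (Eif3f, chr7:108934165-108934464, plus strand, at -68, and Eif4a1, chr11:69672374-69672673, minus strand, at -189). A match is a description of the letters only.
Eif4e: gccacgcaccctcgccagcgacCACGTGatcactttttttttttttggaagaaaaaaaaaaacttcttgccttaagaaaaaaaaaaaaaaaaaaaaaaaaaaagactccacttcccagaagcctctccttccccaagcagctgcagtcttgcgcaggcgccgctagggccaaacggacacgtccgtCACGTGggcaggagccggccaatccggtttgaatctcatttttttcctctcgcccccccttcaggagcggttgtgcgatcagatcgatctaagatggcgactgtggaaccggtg
Eif3f: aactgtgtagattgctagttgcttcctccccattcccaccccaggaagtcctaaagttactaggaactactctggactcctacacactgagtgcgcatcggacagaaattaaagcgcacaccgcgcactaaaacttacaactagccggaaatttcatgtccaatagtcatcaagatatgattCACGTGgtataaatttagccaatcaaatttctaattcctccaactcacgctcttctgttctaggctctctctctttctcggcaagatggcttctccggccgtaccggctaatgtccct
Eif4a1: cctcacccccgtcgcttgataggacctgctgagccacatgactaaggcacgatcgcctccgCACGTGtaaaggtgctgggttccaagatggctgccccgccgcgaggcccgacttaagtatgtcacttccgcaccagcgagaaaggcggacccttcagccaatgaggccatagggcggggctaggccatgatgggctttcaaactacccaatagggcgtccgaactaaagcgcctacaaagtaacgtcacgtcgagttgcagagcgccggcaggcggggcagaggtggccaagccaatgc

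Different ways of processing the arrays moved the sizes of the differences. Eif3c differed by 1.37 to 1.72, Eif5 by 0.63 to 1.00 and Eif2s2 by 0.43 to 0.81 over 5 ways of processing, and Eif3c stayed the largest rise in each, while Eif2c1 stood above Eif5 and Eif2s2 under Agilent's own ratio. The 5 ways run from the fit above to Agilent's own ratio, the Cy5 signal alone, the authors' deposited value table and centring on the array median without loess. Of the 15 genes past the threshold, Eif3c, Eif5 and Eif2s2 passed under all 25 alternatives tried. Centring without loess, which left all genes at a median difference of 0.14, called only 3 members higher and none lower. Eif4e3 was at -0.52 in that fit, just short of the threshold (adjusted p = 0.0503, limma), which is -0.66 relative to the shift of all genes, a value not tested. The share of calls that were higher among all genes was 79.7% there, against 51.1% in the fit above.

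**Figure D5:**
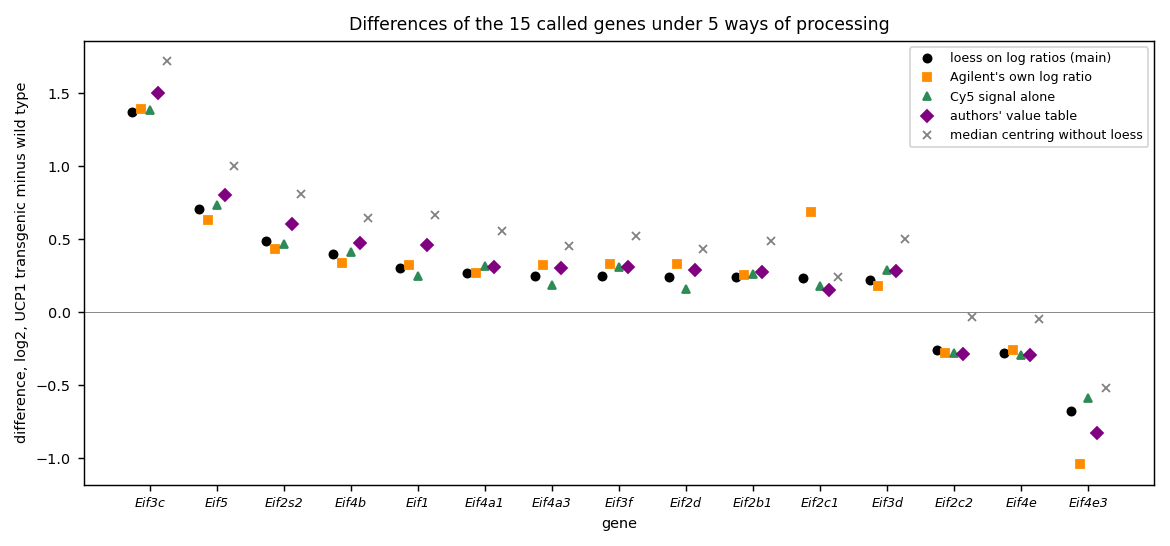
Difference in log2 (UCP1 transgenic minus wild type, vertical axis) of the 15 genes past the threshold under 5 ways of processing the same arrays. Median centring without loess (crosses) puts the values of most genes higher, and no gene changes the side of 0.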

How the data were processed

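Agilent 8x60K arrays of 13 mice (7 UCP1 transgenic, 6 wild type) were read from the scanner files, made with Agilent Feature Extraction 10.5.1.1 per the submitters' processing notes. Per the labels, 200 ng of RNA from each mouse entered labelling. Per the file headers, the deposited spot signals and local backgrounds are intensities on a linear scale, with flags (other values, such as well above background) beside them, and the deposited log10 ratio is Agilent's own. The authors' deposited value table holds log2 values for 25583 probes, with a median of 7.58 in each column. The table tracked each array's Cy5 signal (r of 0.996 to 0.999), was read as a Cy5 scale, and served as an alternative. Nothing read here states its centring and normalization, beyond a joint normalization with samples of a larger series.

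Signals were background corrected with normexp (offset 50) and normalized by loess within arrays in limma 3.58.1 (R 4.3.3), leaving out 3671 control spots and 278 to 377 outlier spots per array. Saturation affected 0 spots, and 37.1% to 43.2% of probes per array were well above background in Cy5. The number of arrays limits the precision. Probes well above background on at least 6 of 13 arrays were kept, spots of a probe were averaged, and the probe with the highest mean signal stood for its gene. Differences were tested with lmFit and eBayes, adjusted over 17257 genes (or 22716 probes) at 0.05, and pairs of related genes with an exact permutation test. The limma fit was also run on simulated log ratios with known differences and spreads taken from these data. An exact permutation test of the same kind was run on random values. Every measured member is named once, and the 15 past the threshold are given with their lowest, median and highest array. All 50 members matched a RefSeq gene by accession. The members, lists and pairs were chosen with earlier results of these data known. Each array, an individual mouse per the labels, is 1 replicate. Correlations between transgenic and wild type arrays of the same replicate number ran from -0.23 to 0.23. Numbers 1, 3, 4 and 6, whose arrays shared a slide, gave 0.07 to 0.23. Numbers 2 and 5, on different slides, gave -0.23 and -0.16. Because slide and number go together here, the correlations cannot settle whether the numbers pair mice, and the main fit used no pairing. Alternatives changed the normalization, background, channel, probe filter and summary, slide, replicate block, members and arrays.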

Additional observations from a re-analysis of the deposited data

Results flagged for a closer look

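In 7 of the 94 groups of arrays examined (47 genes in each genotype), the end array stood apart from the others by Dixon's criterion, which chance gives in about 1 of 20 groups. Values are log2 ratios of mouse over pool. Transgenic replicate 6 was apart for 3 genes, at -0.56 for Eif2c2 (nearest array -0.31), 0.41 for Eif2s3y (nearest 0.19) and -0.61 for Eif4g3 (nearest -0.24). Transgenic replicate 7 read 0.37 for Eif2a (nearest 0.05) and -0.22 for Eif3h (nearest 0.14). Transgenic replicate 2 read -0.45 for Eif3i (nearest -0.05). Wild type replicate 6 read 0.64 for Eif4e3 (nearest 0.27), away from the transgenic arrays. Of these genes Eif2c2 and Eif4e3 are past the threshold, and both remained so without any single array (differences of -0.30 to -0.21 and -0.72 to -0.60).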

How the results depend on the processing

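Of the 15 genes past the threshold, 10 passed in every fit that left out 1 of the 13 arrays, and 7 passed in every alternative other than median centring without loess. No member changed direction while past the threshold in either setting. Leaving out 1 array gave 10 to 14 members higher, 3 to 5 lower and a median difference of 0.06 to 0.10, with 4 to 7 pairs past the threshold, and without wild type replicate 4 the counts were 10 higher and 3 lower. The number lower was 5 without transgenic replicate 2, without wild type replicate 2, with Agilent's own log ratio, and with slide as a fixed or as a random block, both of which gave 15 higher. Of all genes, 38.3% passed with Agilent's own log ratio, and 35.8% and 36.1% with slide as a fixed and as a random block. Median centring without loess gave 3 members higher, 0 lower and a median of 0.35, or 0.21 relative to all genes, with 5 probes higher and 1 lower, and it called 1303 of all genes, against 5695. The cause was not tested. Under it the regulators of initiation had 2 higher and 0 lower, other initiation and recycling proteins 0 and 0, and elongation and termination 0 lower. Other initiation and recycling proteins had 6 lower with Agilent's log ratio and with slide as a fixed block, and 1 lower with Cy5 alone. Elongation and termination had 5 higher and 2 lower with Agilent's log ratio and with slide as a fixed block, and 2 lower with the authors' deposited table. Mitochondrial factors had 1 higher with Agilent's log ratio. The stricter core TGATGCAA was in 0 of 40 member promoters (0%), against 1.03% of genes. No pairing by replicate number was established (the wild type array that best matched a transgenic array bore its number for 1 of 6 numbers). The replicate block left 13 members higher and 3 lower. Without Argonautes and genes with a main role outside initiation, 10 were higher and 2 lower. Low signal limits Eif2c1, and Eif2c3, Eif4e1b and Eif5b could not be measured.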
